A study of Schizosaccharomyces pombe with 3 samples.

Results

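The genes examined here encode the machinery that copies DNA and keeps it intact in the fission yeast Schizosaccharomyces pombe. Members were all genes whose symbol on the array platform begins with rad, mcm, orc, rfc, pcn, psf, sld, pol or ssb followed by a number and whose product works in DNA replication or repair, with checkpoint genes counted as repair. The symbols matched 48 genes, and 47 of these were kept out of 4981 measured features. The gene left out, pol5, takes part in the transcription of ribosomal DNA, and its log2 values were 10.85 in the adapted deletion culture, 10.97 in the unadapted deletion culture and 11.25 in wild type. Each member was read by 1 probe set.

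Expression was measured on 3 Affymetrix arrays, 1 per culture, and the labels name no second culture of any group. The adapted eca39 deletion culture came from strain SpHT257-1 (h- eca39∆::kanMX4), in which the aminotransferase gene eca39, needed to make branched-chain amino acids, is deleted, and which had grown beside wild-type cells on an EMM2-N plate with 15 mM glutamate and 2 mM each of isoleucine, leucine and valine. The unadapted eca39 deletion culture was the same strain taken from a rich YE plate. The wild-type culture was the prototroph SpHT219 (h-), also from a YE plate. All 3 cultures then grew in YE liquid supplemented with the same 3 amino acids at 2 mM, between optical densities near 0.1 and near 1. Adaptation and the plate of origin cannot be told apart, and neither can a strain effect and the variation of a single culture. The eca39 probe set read 6.37 in the adapted culture, 6.12 in the unadapted deletion culture and 14.60 in wild type, far lower on both deletion arrays.

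Replication starts at origins, which the origin recognition complex (ORC) marks and on which the MCM helicase is loaded and then switched on by the GINS complex and Cdc45. At the moving fork, replication protein A (RPA) coats single-stranded DNA, replication factor C (RFC) loads the sliding clamp PCNA, and polymerases extend from the clamp. Checkpoint proteins sense stalled forks and breaks, and repair proteins rejoin broken ends by recombination or end joining or cut out damaged bases. In proliferating yeast most of these proteins are needed in every cycle, and transcription of a subset of their genes peaks near the start of S phase through the factor MBF.

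The values are log2 expression values. The words rose and fell are kept for values that differed at least 2-fold between 2 arrays, a log2 difference of 1, where the brighter value reached 9.82, the 30th percentile of the whole table. With 1 array a group no difference has a replicate check, no p-value is given, and the precision of each value is limited by the number of arrays. Values of different probe sets are not compared with each other, since each probe set has its own brightness. The comparisons with wild type share the wild-type array, and all 3 comparisons draw on the same 3 arrays.

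None of the 47 members rose or fell in any of the 3 comparisons. In the unadapted deletion culture against wild type, 31 members reached the brightness limit and 0 passed, where 2.38% of all features at the limit did. In the adapted culture against wild type it was 0 of 32 members, against a background of 1.7%, and in the adapted against the unadapted deletion culture 0 of 32, against 0.665%. With backgrounds this low, a count of 0 in a list of this size is near that of the whole table. Over the 3 arrays a member's highest and lowest values lay a median of 0.16 apart, and those of all features 0.19 apart. The span was at least 0.5 in 6 members (12.8%) and in 13.7% of all features, and these 6 were psf2, ssb3, pol4, rad21, rad22 and rad50.

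**Figure D1:**
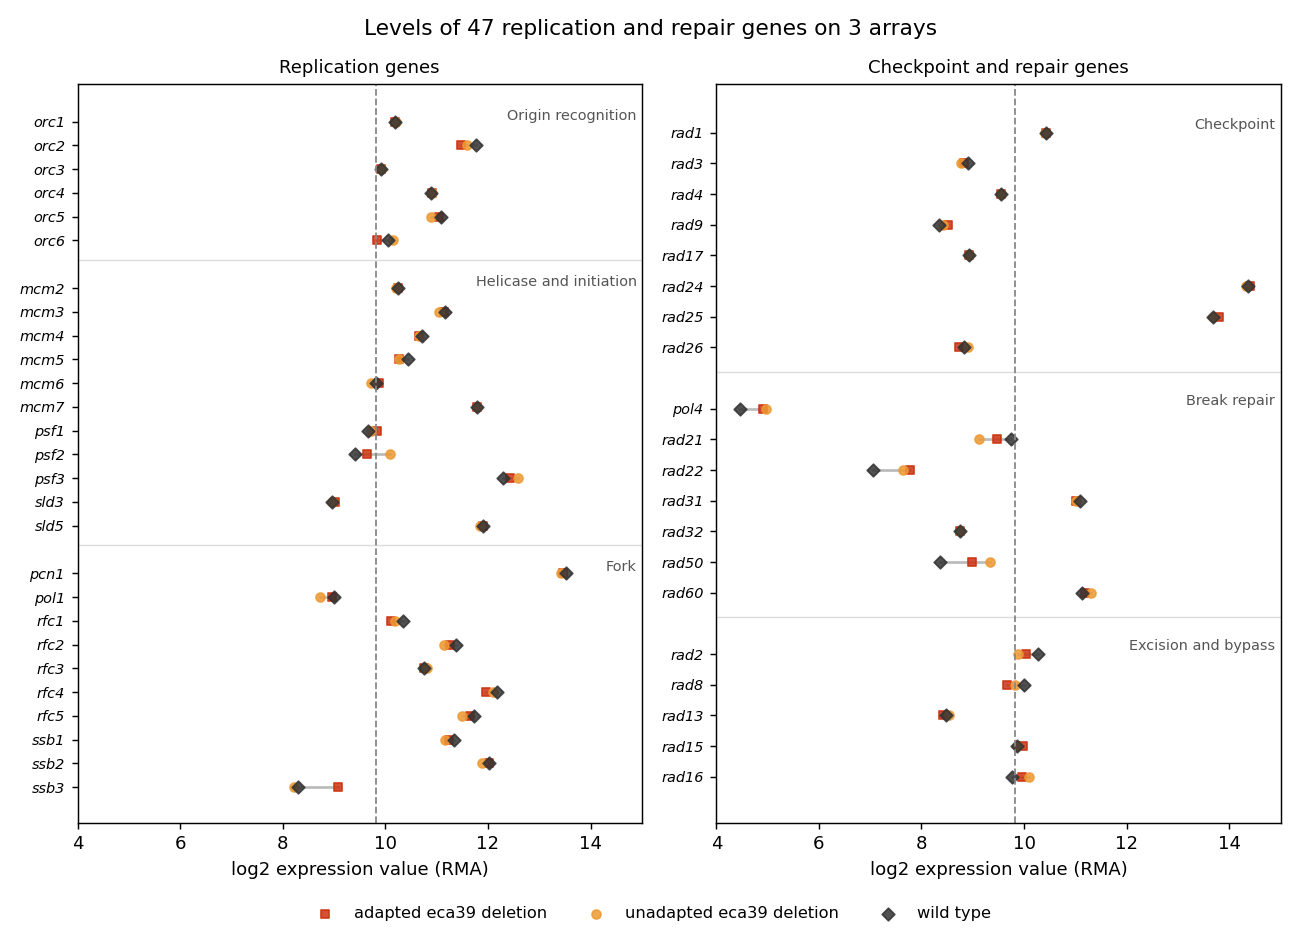
Log2 expression values of the 47 members, with a square for the adapted eca39 deletion, a circle for the unadapted eca39 deletion and a diamond for wild type (1 array each), a grey bar from the lowest to the highest value, and a dashed line at the brightness limit of 9.82. The symbols overlap for most genes, and the widest bars belong to rad50, ssb3, rad22, psf2, rad21 and pol4.

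The brightness of the probe sets bears on how finely these genes were read. A mean over the 3 arrays at or above the limit was found for 30 members (63.8%), against 70.0% of all features. By role this held for all 6 ORC genes, 7 of 11 helicase and initiation genes, 8 of 10 fork genes, 3 of 8 checkpoint genes, 2 of 7 break repair genes and 4 of 5 excision and bypass genes. All 6 members with a span of at least 0.5 had means below the limit. Identical values on all 3 arrays were given for 5 members, orc3, mcm7, rad4, rad17 and rad32 (10.6%, against 5.84% of all features), and for 12 members on at least 2 arrays (25.5%, against 21.5%). A difference given as 0 below rests on such a tie.

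Taken as a list, the members had median differences from wild type near 0, with more of them below it than above. In the unadapted deletion culture 17 were above wild type, 24 below and 6 at 0, with a median difference of -0.012, beside a median of 0 for all features, of which 45.9% lay above and 42.8% below. In the adapted culture 18 were above wild type, 22 below and 7 at 0, and the median was 0, beside 0.027 for all features, of which 56.1% lay above and 34.8% below. Removing the intensity trend between the arrays, which leaves no value at 0, gave 31 of 47 members below wild type in the adapted culture, beside 50.7% of all features, and 32 of 47 in the unadapted deletion culture, beside 47.7%. The medians were then -0.053 and -0.050. Between the adapted and the unadapted deletion culture 23 were above, 15 below and 9 at 0, with a median of 0, beside 0.0029 for all features, of which 50.8% lay above and 36.3% below. The median size of a difference, regardless of sign, was 0.087, 0.078 and 0.103 in these 3 comparisons for the members and 0.123, 0.116 and 0.093 for all features.

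**Figure D2:**
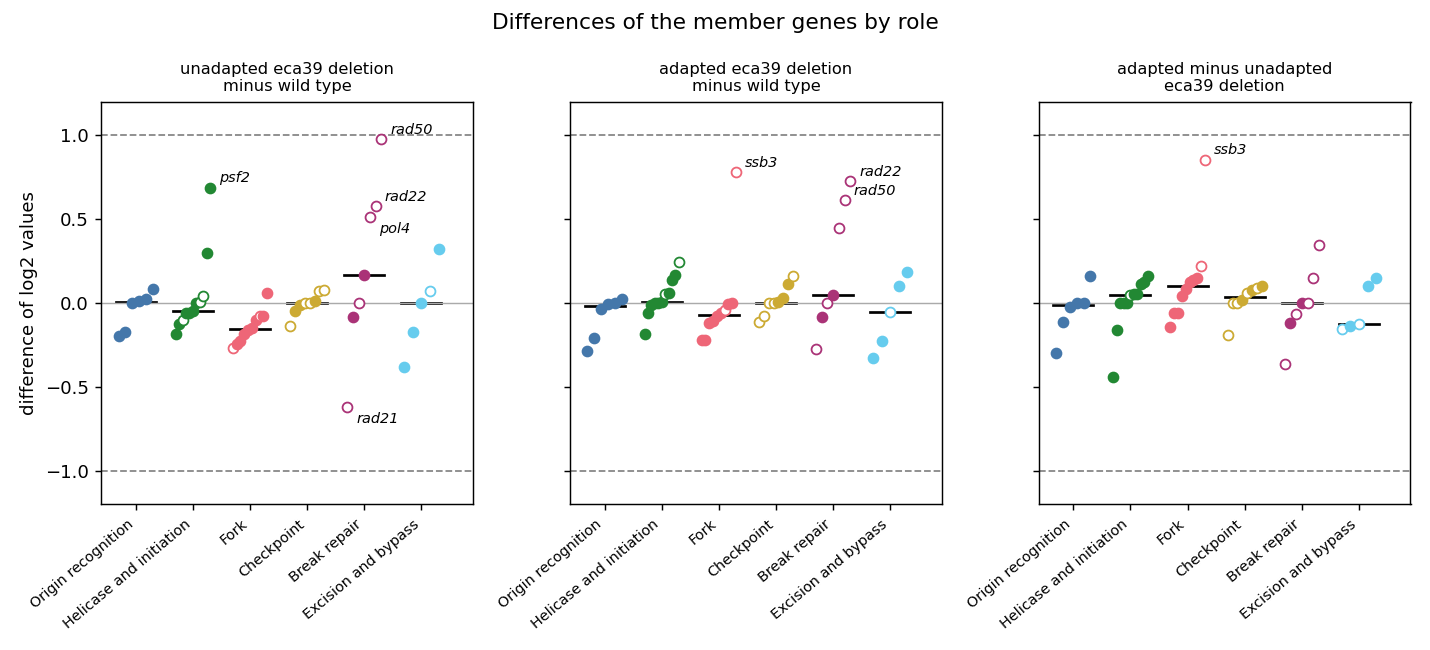
Differences of log2 values of the members by role in the 3 comparisons, with filled points where the brighter array reached the brightness limit, open points where it did not, a black bar at each median and dashed lines at a log2 difference of 1 in either direction. No point crosses a dashed line, fork genes lie mostly below 0 in both panels against wild type, and the points farthest from 0 are mostly open.

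The origin recognition genes read close to wild type in the unadapted deletion culture, with differences from -0.20 to 0.087 and a median of 0.0071. These genes encode the 6 subunits that sit on origins, and in fission yeast Orc4 carries the AT-hooks that hold AT-rich origin DNA. Orc4 read 10.91 in both deletion cultures and 10.88 in wild type. Orc2 read 11.47 in the adapted culture, 11.59 in the unadapted deletion culture and 11.76 in wild type, differences from wild type of -0.29 and -0.17. Wild type was thus the highest array for orc2. Orc6 read 9.84, 10.14 and 10.05 in the adapted culture, the unadapted deletion culture and wild type, so the adapted culture was lower than the unadapted one by a difference of -0.30. Orc5 read 11.05, 10.88 and 11.08 in those cultures and was lowest in the unadapted one. Orc1 read 10.18 in the adapted culture, 10.20 in the unadapted deletion culture and 10.19 in wild type, nearly the same on all arrays. In the adapted culture 4 of the 6 ORC genes lay below wild type, with a median of -0.020. Of all features 34.8% did, and 41.5% of those with a mean at the limit.

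The MCM genes encode the ring of 6 subunits that unwinds DNA. In the unadapted deletion culture 5 of the 6 lay below wild type and mcm7 was at 0, with a median of -0.078 and a lowest value of -0.18 for mcm5. Of all features 42.8% lay below wild type there, and 51.8% of those with a mean at the limit. Mcm5 read 10.26 in both deletion cultures and 10.45 in wild type. Mcm3 read 11.15 in the adapted culture, 11.04 in the unadapted deletion culture and 11.16 in wild type, and mcm6, near the brightness limit, read 9.87, 9.71 and 9.81. Both were lowest in the unadapted deletion culture. Mcm2 read 10.25 in the adapted culture, 10.20 in the unadapted deletion culture and 10.25 in wild type, and mcm4 read 10.66, 10.66 and 10.71. Mcm7 was given as 11.78 on all 3 arrays. In the adapted culture 2 lay above wild type, 3 below and 1 at 0, the median was -0.0060, and mcm5 was again the lowest, at -0.18. Of all features 34.8% lay below wild type there. With the trend removed 5 of the 6 MCM genes did, with a median of -0.030, beside 50.7% of all features.

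Of the GINS complex, which binds MCM and activates it, 3 of the 4 genes read above wild type in the unadapted deletion culture. Of all features 45.9% did, and the GINS median was 0.17. Psf2 read 9.65 in the adapted culture, 10.09 in the unadapted deletion culture and 9.40 in wild type. Its value in the unadapted deletion culture was 1.61-fold that of wild type, a difference of 0.69, and only that array placed psf2 above the brightness limit. Psf3 read 12.43, 12.59 and 12.29 in the adapted culture, the unadapted deletion culture and wild type, well above the limit on every array, with differences from wild type of 0.14 and 0.30. The adapted culture lay between the others for both genes. Psf1 read 9.84 in the adapted culture, 9.71 in the unadapted deletion culture and 9.67 in wild type. The psf1 difference in the unadapted deletion culture, 0.044, turned to -0.050 with quantile normalization repeated, where the median of all features was -0.052. Sld5, the remaining GINS subunit, read 11.90, 11.84 and 11.90 in the same order of cultures. The GINS median stayed above 0, at 0.19 with the intensity trend between the arrays removed and at 0.11 with quantile normalization repeated. Sld3, which helps bring Cdc45 to origins, was dim and read 9.02 in the adapted culture, 8.97 in the unadapted deletion culture and 8.96 in wild type.

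At a 1.5-fold threshold with the same brightness limit, psf2 was the single member to pass in the unadapted deletion culture against wild type, 1 of 31, where 6.14% of all features passed. No member passed in the adapted culture against wild type, where 4.04% did, or in the adapted against the unadapted deletion culture, where 2.19% did. Among all features with a mean below the brightness limit, 10.6% differed from wild type in the unadapted deletion culture at least as much as psf2. For psf3, set among the features with a mean at the limit, that share was 17.8%.

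The fork genes stood lower in the unadapted deletion culture than in wild type in 9 of 10 cases, with a median of -0.15. Of all features 42.8% lay below wild type there. Among features with a mean at the limit, as 8 of the 10 fork genes had, 51.8% did. The differences ran from -0.27 for pol1, a value 0.831 times that of wild type, to 0.059 for rfc3. The pol1 difference, from a dim probe set, was -0.37 with the intensity trend removed and -0.44 with quantile normalization repeated. The count was 9 of 10 with the intensity trend removed as well, with a median of -0.15. With quantile normalization repeated the median was -0.20, beside -0.052 for all features. In the adapted culture 8 of 10 fork genes lay below wild type, beside 34.8% of all features and 41.5% of those at the limit. Their median was -0.068. With the trend removed 9 of 10 did, with a median of -0.094. The median was -0.12 with quantile normalization repeated, beside -0.036 for all features. RNA of a whole culture cannot tell apart fewer cells in S phase and less of these transcripts in each cell.

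Pcn1, the gene of PCNA, read 13.46 in the adapted culture, 13.42 in the unadapted deletion culture and 13.52 in wild type. Of its loader, rfc1 read 10.12, 10.18 and 10.34, rfc2 read 11.27, 11.14 and 11.39, and rfc5 read 11.65, 11.50 and 11.72 in the adapted culture, the unadapted deletion culture and wild type. Wild type was the highest of the 3 arrays for each of these 4 genes. Rfc4 was likewise highest in wild type, with 11.96 in the adapted culture, 12.10 in the unadapted deletion culture and 12.18 in wild type. Rfc3 read 10.75, 10.81 and 10.75 in the same cultures and so did not share that order. The RFC median was -0.12 in the adapted culture and -0.16 in the unadapted deletion culture, both relative to wild type. Pol1, the catalytic subunit of polymerase alpha, which begins DNA strands together with primase, read 8.95 in the adapted culture, 8.73 in the unadapted deletion culture and 8.995 in wild type, all below the brightness limit.

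The 3 subunits of RPA gave different patterns. Ssb1, the large subunit, read 11.24 in the adapted culture, 11.16 in the unadapted deletion culture and 11.34 in wild type. Ssb2, the middle subunit, read 12.02, 11.88 and 12.02 in those cultures. Both were lowest in the unadapted deletion culture. Ssb3, the small subunit, read 9.08 in the adapted culture, 8.22 in the unadapted deletion culture and 8.30 in wild type. The adapted culture was thus 1.81-fold above the unadapted deletion culture and 1.72-fold above wild type, while the unadapted culture and wild type differed by -0.075, or by -0.22 with the trend removed and -0.37 with quantile normalization repeated. All 3 readings of ssb3 lay below the brightness limit. Among all features with a mean below that limit, 2.9% differed at least as much as ssb3 between the adapted and the unadapted deletion culture, and 9.4% between the adapted culture and wild type. With the trend removed the differences of the adapted culture were 0.85 from the unadapted one and 0.64 from wild type, and with quantile normalization repeated they were 0.86 and 0.49.

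Checkpoint genes had the smallest median span over the 3 arrays of the 6 roles, 0.095. Differences in the unadapted deletion culture against wild type ran from -0.14 for rad3 to 0.078 for rad26, and the median was 0, with 3 of 8 genes above and 3 below. With the trend removed 7 of 8 lay below wild type and the median was -0.031. It was -0.11 with quantile normalization repeated, beside -0.052 for all features. Rad3 stood at -0.24 and -0.32 under these settings, and rad26 turned to -0.020 and -0.12. Rad3, the fission yeast ATR kinase, read 8.83 in the adapted culture, 8.77 in the unadapted deletion culture and 8.91 in wild type. Its partner gene rad26 read 8.73, 8.92 and 8.84 in those cultures. The 9-1-1 clamp is a ring loaded at damaged DNA, and of its genes rad1 read 10.43, 10.42 and 10.43 and rad9 read 8.51, 8.42 and 8.35 in the adapted culture, the unadapted deletion culture and wild type. Rad17, which loads the clamp, was given as 8.92 and rad4, the TopBP1 homolog, as 9.55 on every array. The genes of the 14-3-3 proteins that bind checkpoint targets were bright. Rad24 read 14.40 in the adapted culture, 14.33 in the unadapted deletion culture and 14.37 in wild type, and rad25 read 13.79, 13.69 and 13.68. The arrays' highest values were 15.12 to 15.17, so a change in these bright genes could read too small.

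Break repair genes had the largest median span of the roles, 0.51, and their largest differences came from dim probe sets. Rad50, a subunit of the complex with the Mre11 nuclease that binds broken ends, read 8.98 in the adapted culture, 9.34 in the unadapted deletion culture and 8.37 in wild type. This was a 1.97-fold higher value in the unadapted deletion culture and a 1.53-fold higher value in the adapted culture than in wild type. The first is the largest difference of any member in the 3 comparisons, and it missed the 2-fold threshold as well as the brightness limit. Among features with a mean below the limit, 5.8% differed at least as much in that comparison. That difference was 0.88 with the trend removed and 0.75 with quantile normalization repeated, and the 0.61 of the adapted culture against wild type was 0.47 and 0.34. Rad32, the gene of the nuclease itself and now named mre11, was given as 8.75 on all 3 arrays.

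Rad22, now named rad52, encodes the mediator that helps load the strand exchange protein. It read 7.78 in the adapted culture, 7.64 in the unadapted deletion culture and 7.06 in wild type, differences from wild type of 0.73 and 0.58. Both deletion cultures were higher than wild type. Quantile normalization repeated on the table left 0.28 and 0.20 of these differences, and 0.54 and 0.40 remained with the trend removed. Pol4, a polymerase of the X family used in joining ends, read 4.90, 4.97 and 4.45 in the adapted culture, the unadapted deletion culture and wild type, near the floor of the arrays, which began at 2.99 to 3.00.

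Rad21 was the member furthest below wild type. It encodes the kleisin subunit of cohesin, the ring that holds sister chromatids together and serves in break repair. It read 9.47 in the adapted culture, 9.12 in the unadapted deletion culture and 9.74 in wild type. The difference from wild type was -0.62 in the unadapted deletion culture, a value 0.652 times that of wild type, and -0.27 in the adapted culture. All 3 arrays gave it below the brightness limit. Among features with a mean below the limit, 12.2% differed at least as much between the unadapted deletion culture and wild type, and the difference was -0.67 with the trend removed and -0.74 with quantile normalization repeated. The genes rad31, of the SUMO-activating enzyme, and rad60, whose protein has SUMO-like domains, were bright. Rad31 read 11.01 in both deletion cultures and 11.09 in wild type, and rad60 read 11.18 in the adapted culture, 11.30 in the unadapted deletion culture and 11.14 in wild type.

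Without any brightness limit and at 1.5-fold, a rule set after the values were seen, 3 of 47 members passed in the unadapted deletion culture against wild type. These were psf2 and rad50 above and rad21 below wild type, and 7.95% of all features passed. In the adapted culture against wild type 3 of 47 passed, ssb3, rad22 and rad50, all above it, against 6.83% of features. Between the adapted and the unadapted deletion culture 1 of 47 passed, ssb3, against 3.01% of features. These shares lie near the background.

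Excision and bypass genes differed from wild type in both directions. Rad2, the flap endonuclease FEN1 that trims Okazaki fragments, read 10.03 in the adapted culture, 9.88 in the unadapted deletion culture and 10.26 in wild type. Its difference of -0.38 in the unadapted deletion culture was matched or exceeded by 11.8% of features with a mean at the limit. Rad8, a ubiquitin ligase of post-replication repair, read 9.66, 9.82 and 9.99 in the adapted culture, the unadapted deletion culture and wild type. Wild type was highest for both of these genes. Rad16, the XPF nuclease subunit of nucleotide excision repair, instead read 9.96 in the adapted culture, 10.09 in the unadapted deletion culture and 9.77 in wild type. In the same pathway rad13, of the XPG nuclease, read 8.42, 8.54 and 8.47, and rad15, of the XPD helicase, read 9.97, 9.87 and 9.87 in those cultures.

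Dim probe sets as a class read lower on the wild-type array, and 11 of the 20 checkpoint and repair members but 6 of the 27 replication members had means below the limit. Over all features with a mean below the limit the median difference from wild type was 0.12 in the adapted and 0.098 in the unadapted deletion culture, and over those at the limit it was 0.0042 and -0.0073. Of the 17 members below the limit, 9 lay above wild type, 5 below and 3 at 0 in the unadapted deletion culture, with a median of 0.0071, which became -0.065 with the trend removed. The 30 members at the limit had a median of -0.057 there, with 8 above, 19 below and 3 at 0. Of all features below the limit 63.5% lay above wild type in that culture, and of those at the limit 51.8% lay below. Of the 27 replication members 17 lay below wild type in the unadapted deletion culture, and of the 20 checkpoint and repair members 7 did. These counts became 18 and 14 with the trend removed. Of all features 42.8% lay below wild type, and 47.7% with the trend removed. The part of probe brightness in the single differences was not tested.

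**Figure D3:**
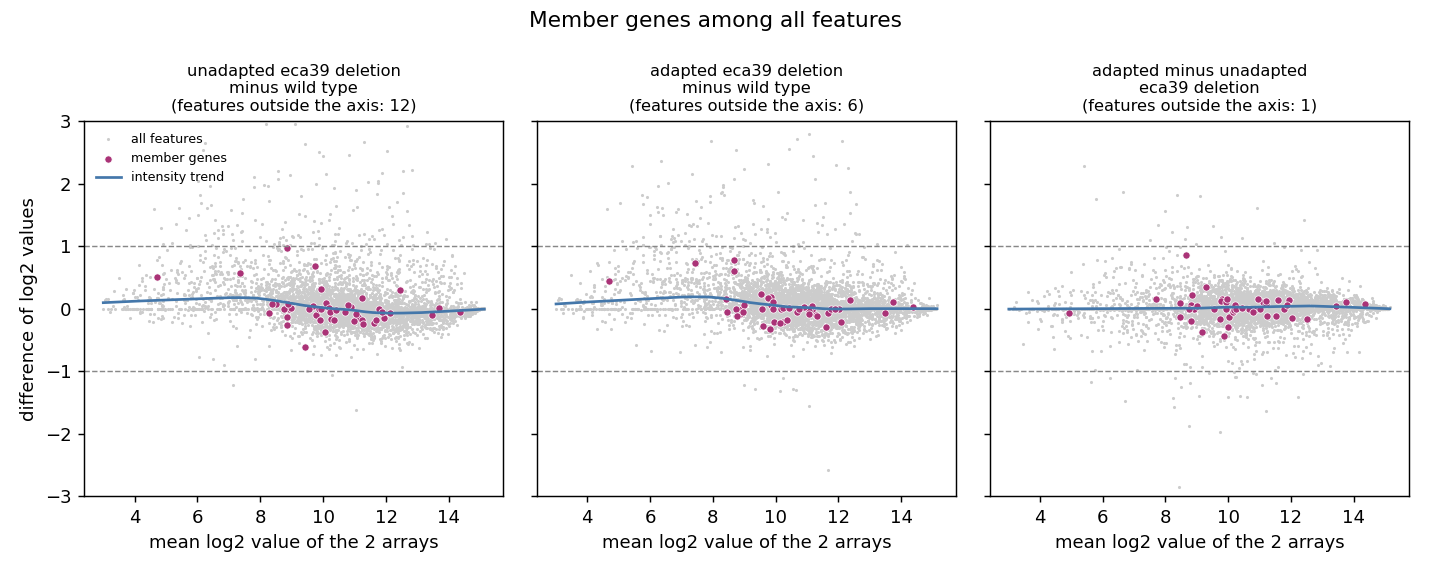
Difference of log2 values against the mean log2 value of the 2 arrays in each comparison, with all 4981 features in grey, the 47 members in purple, the fitted intensity trend as a blue line and dashed lines at a log2 difference of 1 in either direction. The members lie within the cloud of features, and the trend against wild type is above 0 for dim features and near 0 between the mutant arrays.

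Other genes of these pathways were described in the same way. Of all features at the limit 2.38% rose or fell in the unadapted deletion culture against wild type. It was 1.7% in the adapted culture against wild type and 0.665% in the adapted against the unadapted deletion culture. Of 29 further replication genes 22, 22 and 23 reached the limit in these 3 comparisons, and none rose or fell. In the unadapted deletion culture 16 lay below wild type, with a median of -0.037, beside 42.8% of all features and 51.8% of those at the limit. In the adapted culture 15 did, with a median of -0.0054, beside 34.8% of all features. With the trend removed 19 lay below in the unadapted deletion culture and 22 in the adapted culture, beside 47.7% and 50.7% of all features. The replication licensing gene cdt1 read 9.91 in the adapted culture, 9.56 in the unadapted deletion culture and 10.30 in wild type, and cdc1, of a subunit of polymerase delta, read 10.71, 10.57 and 11.09. For both, wild type was highest, and cdt1 differed from it by -0.73 in the unadapted deletion culture. Mcb1, of a protein that binds MCM, read 9.73 in the adapted culture, 9.12 in the unadapted deletion culture and 9.34 in wild type, so here the adapted culture was highest. Of 37 further recombination and end joining genes only 13 reached the limit in each comparison, and none rose or fell. The rest could not pass the rule. Of the 37, 26 lay above wild type in the adapted and 24 in the unadapted deletion culture, with medians of 0.098 and 0.061. In all features 56.1% and 45.9% lay above wild type. Of this list 24 genes had a mean below the brightness limit, and of all features below it 67.3% lay above wild type in the adapted and 63.5% in the unadapted deletion culture. The list's medians turned to -0.025 and -0.036 with quantile normalization repeated, where those of all features were -0.036 and -0.052. With the trend removed the list's medians were 0.023 and 0.028. Smc5, of the complex with which Rad60 works, read 9.89 in the adapted culture, 10.53 in the unadapted deletion culture and 9.67 in wild type. That is 0.86 above wild type in the unadapted culture, with the wild-type value below the brightness limit. Xlf1, an end joining factor, was dim and read 8.87, 8.70 and 8.08 in those cultures.

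Of 35 further excision, mismatch and bypass genes 18 reached the limit in the unadapted deletion culture against wild type. Of 14 further checkpoint genes 7 did. In the adapted culture against wild type it was 17 and 8, and in the adapted against the unadapted deletion culture 18 and 8. None rose or fell, where 2.38%, 1.7% and 0.665% of all features at the limit did in these comparisons. In the excision list 18 genes lay above and 15 below wild type in the adapted culture, with a median of 0.0077. In the unadapted deletion culture 17 lay above and 17 below, with a median of 0. With the trend removed 28 lay below wild type in the adapted culture, beside 50.7% of all features. In the unadapted deletion culture 19 then did, beside 47.7%. Rev1, a translesion polymerase gene, was dim and read 7.16 in the adapted culture, 7.56 in the unadapted deletion culture and 6.59 in wild type. Mag1, of a DNA glycosylase, read 9.0, 9.30 and 8.60 in those cultures. Both were highest in the unadapted deletion culture. Ddb1 of the same list was bright and highest in wild type, with 10.73, 10.86 and 11.13 in those cultures. The checkpoint kinase gene tel1 read 9.88 in the adapted culture, 9.71 in the unadapted deletion culture and 9.36 in wild type, and chk1 read 6.30, 6.31 and 5.87. Tel1 reached the brightness limit only in the adapted culture, and chk1 was dim on every array. The chk1 differences from wild type, 0.43 in the adapted and 0.44 in the unadapted deletion culture, were 0.27 and 0.28 with the trend removed. Mik1 of the checkpoint list was dim and highest in wild type, with 7.12, 7.08 and 7.39 in those cultures. The checkpoint list had medians of 0.065 in the adapted and 0.045 in the unadapted deletion culture relative to wild type. These became -0.048 and -0.037 with quantile normalization repeated, where the medians of all features were -0.036 and -0.052.

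A list of 22 regulators and targets of the G1/S transition shares genes with the further replication list, cdt1 and mcb1 among them. Of its genes 6 lay below wild type in the adapted culture, where 34.8% of all features did. In the unadapted deletion culture 14 did, where 42.8% of all features did. The median was -0.14 in the unadapted deletion culture against wild type, 0.073 in the adapted culture against wild type and 0.26 between the adapted and the unadapted deletion culture. With quantile normalization repeated the 0.073 of the adapted culture became -0.029, beside -0.036 for all features. In the same 3 comparisons the fork genes had medians of -0.15, -0.068 and 0.10, and the MCM genes of -0.078, -0.0060 and 0.027. The MCM median in the last comparison was 0.0021 with the trend removed, and mcm4, mcm5 and mcm7 had the same value in both deletion cultures. The fork median was 0.071 there. The S-phase cyclin gene cig2 read 11.60 in the adapted culture, 10.94 in the unadapted deletion culture and 11.58 in wild type. Of the list, the cyclin gene pas1 rose against wild type, with 12.85 in the adapted culture, 13.21 in the unadapted deletion culture and 11.49 in wild type. In the adapted culture it was 1 of 15 genes at the limit, where 1.7% of all features passed. In the unadapted deletion culture it was 1 of 14, where 2.38% passed. No gene of the list fell. Rep1 read 7.52, 6.99 and 6.43 in those cultures. Its difference of 1.09 in the adapted culture against wild type, 0.90 with the trend removed, was too dim to count. Whether the cell cycle differed between the cultures was not measured, and its part in the fork gene values was not tested.

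**Figure D4:**
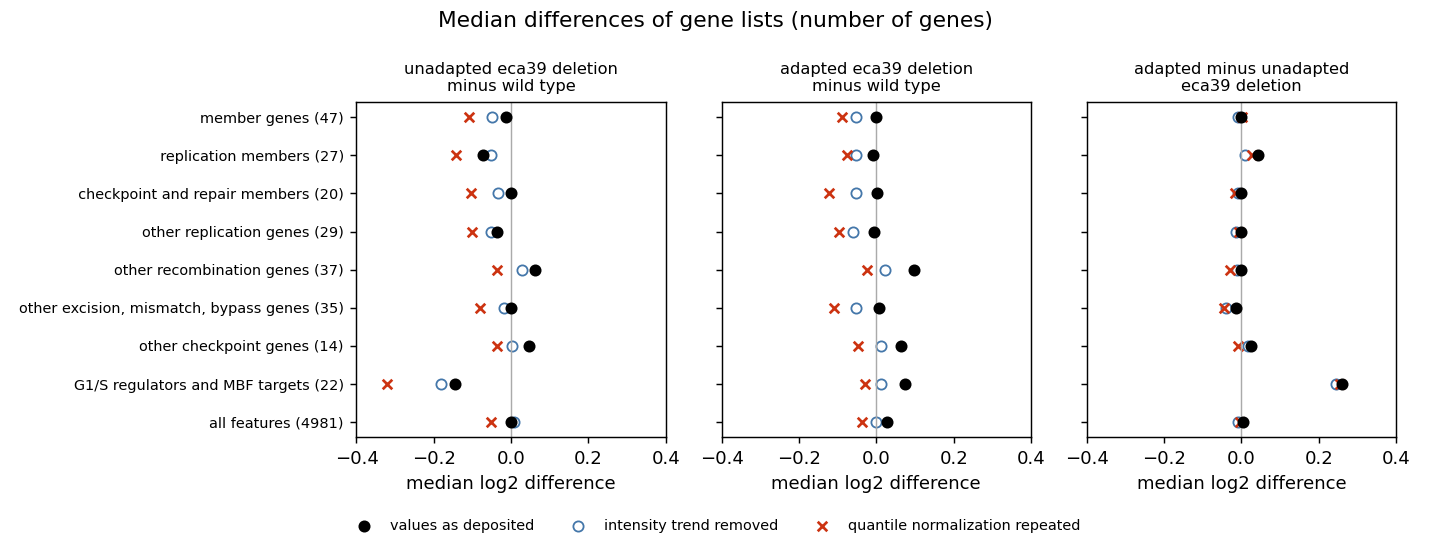
Median log2 difference of the members, the other pathway lists and all features in the 3 comparisons, with black points for the values as deposited, open blue points with the intensity trend removed and red crosses with quantile normalization repeated, and the number of genes in brackets. Medians of all members stay between -0.11 and 0.0026, and the G1/S list lies farthest from 0, at -0.32 in the first panel with quantile normalization repeated and at 0.26 in the last panel with the values as deposited.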

How the data were processed

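RNA of 3 cultures was hybridized to 1 Affymetrix array each, after labelling with a 3' IVT kit per the labels' protocols. The deposited values are log2 expression values per probe set, made by the authors with RMA in affy per the submitters' processing notes. RMA corrects the background, quantile normalizes the arrays and summarizes probes by median polish. The log base was taken as 2 from the range of the values. Versions, probe set filters and the genome build were not given in the sources used here.

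Of 4999 probe sets, 2917 carried 1 gene name on the platform, 20 several and 2062 none. Probe sets of 1 gene were averaged, which left 4981 features. All 47 members were found by gene number in a RefSeq table of assembly ASM294v3, and 2 have newer symbols there. In the further pathway lists, dpb3 was left out because its gene number now has another name. The members and lists were chosen with earlier results of these data known. All members are named in the text, and from each further list up to 3 genes per comparison were eligible by the size of their difference, plus any that passed the size rule.

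The size rule asked for a 2-fold difference and a brighter value at the 30th percentile of the table. No tests were run. The intensity trend was a lowess fit of the difference on the mean (span 0.3, statsmodels 0.14.6, Python 3.11.15). On simulated data the size rule was tested for recovery of planted differences. Alternatives covered the brightness limit, the fold threshold, the scaling, the choice of probe set and the membership. No sequences are shown.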

Additional observations from a re-analysis of the deposited data

How the results depend on the processing

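The count of members past the size rule was 0 in each of the 3 comparisons. It was 0 as well without the brightness limit, with the intensity trend removed and with quantile normalization repeated. With arrays centred on their medians it could only be 0, since that shift was too small to bring any member to 2-fold. The limit at the 50th percentile, the 3-fold threshold, the brightest probe set and the list without 14-3-3, cohesin and SUMO genes could only give 0 here, since the rule was stricter, each member had 1 probe set or members were removed. At 1.5-fold it was 1 in the unadapted deletion culture against wild type and 0 in the other 2 comparisons. At 1.5-fold without the limit, chosen after the values were seen, it was 3, 3 and 1. The median difference moved by less than 0.1 under the 6 alternatives tried for it, between -0.11 and -0.0062 in the unadapted deletion culture and between -0.088 and 0 in the adapted culture, each against wild type, and between -0.0078 and 0.0026 in the last comparison. Among members that differed by at least 0.2, no sign turned with the trend removed or with quantile normalization repeated. Centring shifts all genes of a comparison alike, by too little to turn such a sign. Of 141 single differences, 33 moved by 0.1 or more with quantile normalization repeated and 19 with the trend removed. Each group had 1 array, so no array could be left out. No paired analysis was possible because no group had a second sample. Dim probe sets, 17 of 47 members, limit the reading of single genes.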
